A study of Mus musculus with 6 samples.

Results

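The genes described here make cholesterol and fatty acids. They are 31 genes, named by symbol, of which 15 form a sterol branch and 16 a fatty acid and phospholipid branch. All 31 had probes on the array, 53 probes in all, and all 31 entered the comparison, out of 19871 features tested, 13943 of them with a gene symbol. The probe that stands for each gene lay well above background on all 6 arrays.

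RNA of whole lungs from 6 mouse embryos, taken at E18.5 close to birth, was hybridised in 1 colour with 1 array per embryo. The 3 knockout embryos were homozygous for the null allele of ECAT15-2 (15-2-/-), which is the gene Dppa2, and for a floxed allele of ECAT15-1 (15-1Flox/Flox), which is Dppa4. The 3 wild type embryos carried the intact alleles of both genes (15-1+/+, 15-2+/+). Both genes encode nuclear proteins best known from pluripotent cells. Knockout and wild type embryos came from intercrosses of 15-1+/Flox, 15-2+/- parents. All embryos had a mixed background: 129Sv embryonic stem cells, matings to C57/BL6 and 1 cross to Cre or FLPe transgenic mice of unknown background. Whether any embryo inherited that transgene, and which embryos shared a litter, is not given in the sources used here. The labels do not say whether the lungs came from separate pregnancies, so p-values measure only the spread between these samples.

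Dppa2 itself read -4.94, -4.99 and -4.08 on the knockout arrays, against -3.25, -3.52 and -3.57 on the wild type arrays, in log2 units relative to the array's 75th percentile. The groups did not overlap, but the difference of -1.22 had an adjusted p of 0.0604 (limma), and the part of the transcript that the probe reads relative to the deletion is not given in the sources used here. Of 4 genes on the Y chromosome (Uty, Kdm5d, Eif2s3y, Ddx3y), the 3 knockouts and wild type 3 had signal above background from 0, and wild types 1 and 2 from 4, so sex was unevenly split between the groups. Knockouts 1 and 2 lay on slide 3, while knockout 3 lay on slide 1 with wild types 1 and 2, and wild type 3 lay on slide 2. The labels give each raw file a leading number, which knockouts 1 and 2 share, as do wild types 1 and 2, and as do knockout 3 and wild type 3. What that number stands for is not given in the sources used here. Markers of alveolar type 2 cells, which make surfactant, passed the background filter for 12 of 12 genes. Heart muscle markers did so for 8 of 8 genes, and 4 of these (Nkx2-5, Myl7, Tnni3 and Tnnt2) fell in the knockouts, calls that some alternative fits lose, as given with those markers.

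Cholesterol is built from acetyl-CoA through mevalonate, the isoprenoids and squalene to lanosterol, which is then trimmed to cholesterol. Fatty acids are built from acetyl-CoA and malonyl-CoA, then elongated, desaturated, activated and placed on glycerol to form phospholipids. The transcription factors SREBP-2 (encoded by Srebf2) and SREBP-1 (encoded by Srebf1) turn on the genes of the sterol and of the fatty acid branch, with overlap between their targets, and INSIG proteins hold them back in the endoplasmic reticulum when sterols are plentiful. In the lung, type 2 cells raise fatty acid and phosphatidylcholine synthesis late in gestation to fill lamellar bodies with surfactant.

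Promoter windows of 300 bases, 250 before and 50 after a gene's start, were available from RefSeq (GRCm38.p6) for 24 of the 31 genes, 11 of the sterol and 13 of the fatty acid branch. They are shown because SREBPs bind the sterol regulatory element and act together with the factor NF-Y, which binds CCAAT boxes. The windows below are those of the gene with the smallest p in each branch among genes with a window, Mvd and Elovl1. Added to these is, for each branch, the gene with the smallest p whose window matches the sterol regulatory element searched for, Hmgcs1 and Pcyt1a. Capitals mark matches to the sterol regulatory element TCACNCCAC and to CCAAT on either strand. Scd1 is not among the genes with a window. The regions are chr8:122443373-122443672 (minus strand) for Mvd, chr13:119690101-119690400 (plus strand) for Hmgcs1, chr4:118427843-118428142 (plus strand, 1 of 2 windows) for Elovl1 and chr16:32430671-32430970 (plus strand, 1 of 3 windows) for Pcyt1a.
Mvd: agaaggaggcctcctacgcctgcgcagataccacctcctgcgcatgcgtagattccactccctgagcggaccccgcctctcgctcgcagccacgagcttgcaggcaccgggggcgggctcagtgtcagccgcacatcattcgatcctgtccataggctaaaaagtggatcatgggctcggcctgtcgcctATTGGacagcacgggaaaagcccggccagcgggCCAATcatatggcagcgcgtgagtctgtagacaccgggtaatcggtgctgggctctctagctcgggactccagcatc
Hmgcs1: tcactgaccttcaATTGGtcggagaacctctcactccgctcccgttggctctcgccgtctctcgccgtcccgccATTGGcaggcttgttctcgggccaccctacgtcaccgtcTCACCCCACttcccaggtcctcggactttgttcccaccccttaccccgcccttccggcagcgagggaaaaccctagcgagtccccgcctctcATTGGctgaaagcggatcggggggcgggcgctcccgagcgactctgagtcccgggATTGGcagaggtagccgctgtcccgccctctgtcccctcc
Elovl1: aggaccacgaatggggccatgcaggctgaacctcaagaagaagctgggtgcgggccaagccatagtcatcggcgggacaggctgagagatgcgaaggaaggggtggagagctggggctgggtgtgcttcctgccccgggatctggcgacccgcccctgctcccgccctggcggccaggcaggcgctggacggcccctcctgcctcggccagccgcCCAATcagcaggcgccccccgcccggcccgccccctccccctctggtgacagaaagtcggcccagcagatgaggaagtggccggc
Pcyt1a: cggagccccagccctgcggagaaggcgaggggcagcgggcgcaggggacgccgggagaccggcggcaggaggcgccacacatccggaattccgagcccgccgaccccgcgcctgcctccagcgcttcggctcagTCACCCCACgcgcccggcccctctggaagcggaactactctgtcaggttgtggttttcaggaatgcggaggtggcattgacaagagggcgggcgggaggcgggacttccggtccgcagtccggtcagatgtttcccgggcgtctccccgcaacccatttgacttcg

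A match to the sterol regulatory element TCACNCCAC stood in 1 of 11 sterol genes with a window (Hmgcs1). Among fatty acid and phospholipid genes such a match stood in 1 of 13 (Pcyt1a), against 1.44% of all 27025 genes with a window. In Hmgcs1 it lay 137 to 129 bases before the start, and in Pcyt1a 116 to 108 bases before it. A CCAAT box stood in 11 of 11 sterol genes and in 8 of 13 fatty acid and phospholipid genes, against 41.1% of those genes. The GC box GGGCGG stood in 11 of 11 and in 9 of 13 genes, against 38.2% of all genes. Mvd holds a CCAAT box on each strand within 60 bases before the start, and Hmgcs1 holds 4 CCAAT boxes. Matches of different motifs overlapped only in Elovl1, where the CCAAT box shares bases with a GC box, and CCAAT matches overlapped each other in Fasn. These matches describe letters in the windows, and no binding was measured. Other spellings of the sterol regulatory element were not searched, so a window without a match may still hold one.

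None of the 31 genes passed the test between knockout and wild type lungs (limma, adjusted p under 0.05), while 1.34% of all 19871 features did (0.725% higher and 0.619% lower). At an unadjusted p under 0.05, 7 of the 31 genes were lower in the knockouts and 0 were higher, against 10.3% lower and 15.4% higher of all features. The 7 are Mvd of the sterol branch and Scd1, Elovl1, Acsl4, Me1, Fasn and Gpam of the fatty acid and phospholipid branch. The difference was negative for 28 of the 31 genes, against 48.9% of all features. All 3 knockout arrays lay below all 3 wild type arrays for 6 genes, against 14.3% of all features, and above them for 1 gene, Stard4, against 17% of all features. The median difference over the 31 genes was -0.19 on the log2 scale, against 0.008 over all features. In whole lungs, fewer cells of a type and less RNA per cell cannot be told apart.

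The absence of calls depended on 2 arrays. Without wild type 3, 1973 features passed the test in limma, and 3 of these were among the 31 genes, all lower in the knockouts: Me1 (adjusted p = 0.0193), Elovl1 (adjusted p = 0.0352) and Acsl4 (adjusted p = 0.0455). Without knockout 3, 440 features passed, with 1 of the 31 genes, Scd1 (adjusted p = 0.0339). On leaving out each of the other 4 arrays in turn, 34 to 80 features and 0 of the 31 genes passed.

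**Figure D1:**
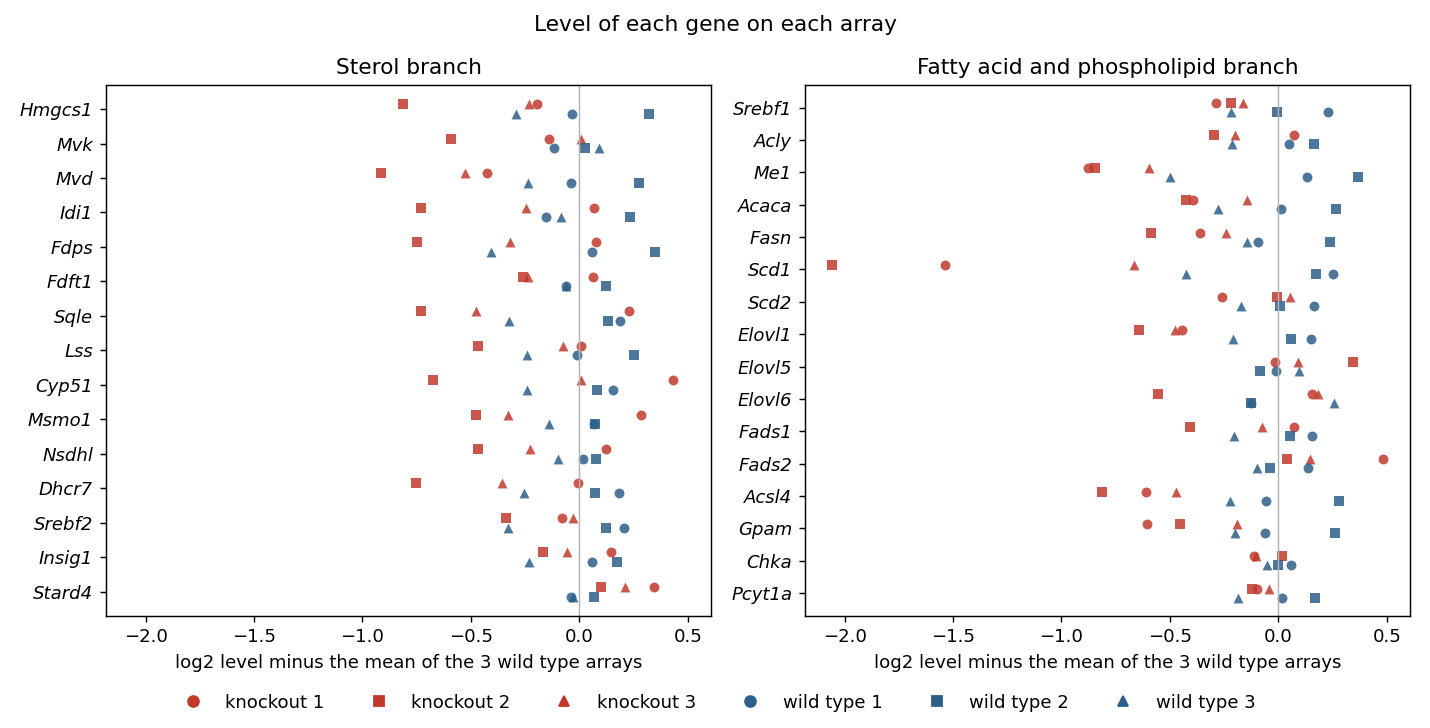
The log2 level of each gene on each array (x axis, relative to the mean of the 3 wild type arrays), with 1 row per gene in pathway order, knockouts in red and wild types in blue, and 1 symbol per array. Knockout 2 (red squares) was the lowest knockout for all 15 sterol genes, and Scd1 had the widest spread.

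The sterol branch begins with the mevalonate steps. Hmgcs1, the synthase that joins acetyl units into HMG-CoA, had log2 levels of 3.54, 2.92 and 3.50 in knockout lungs, against 3.70, 4.06 and 3.44 in wild type lungs. The groups overlapped, because wild type 3 lay below knockouts 1 and 3. Mvk, mevalonate kinase, read -0.46, -0.91 and -0.31 in knockouts, against -0.43, -0.29 and -0.23 in wild types. At this probe knockout 2 alone stood apart, and the difference was -0.24 with a standard error (SE) of 0.17. The gene's other probe differed by -0.433, and there knockouts 1 and 2 both lay below all wild types. Mvd, the decarboxylase that makes isopentenyl diphosphate, read 0.33, -0.16 and 0.23 in knockouts, against 0.72, 1.03 and 0.52 in wild types. It was the 1 sterol gene whose knockouts all lay below all wild types. Its difference was -0.62 (SE 0.18, adjusted p = 0.104, limma), which is 1.54-fold lower.

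The next steps assemble squalene. Idi1, the isomerase of isopentenyl diphosphate, averaged 1.81 ± 0.40 in knockouts and 2.11 ± 0.21 in wild types (SD, n = 3 each), and its other probe differed by 0.067 in the opposite direction. Fdps, farnesyl diphosphate synthase, averaged 1.18 ± 0.41 in knockouts and 1.51 ± 0.38 in wild types. Fdft1, squalene synthase, averaged 0.90 ± 0.18 in knockouts and 1.04 ± 0.11 in wild types. The differences of these 3 genes, -0.30, -0.33 and -0.14, were of the size of the SDs between arrays of 1 group.

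Sqle, the epoxidase that is a rate-controlling step after squalene, read 1.44, 0.48 and 0.74 in knockouts, against 1.40, 1.35 and 0.89 in wild types. Knockout 1 had the highest level of all 6 arrays and knockout 2 the lowest. Cyp51, the lanosterol demethylase, showed the same order among the knockouts, with -1.17, -2.27 and -1.59, against -1.44, -1.52 and -1.84 in wild types. Its 2 other probes differed by 0.197 and 0.105, against -0.079 at the probe used, so the direction depends on the probe. Msmo1, the methylsterol oxidase, read 2.71, 1.95 and 2.09 in knockouts, against 2.49, 2.49 and 2.28 in wild types, again with knockout 1 highest and knockout 2 lowest of the 6.

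Lss, which closes the ring of lanosterol, averaged -1.69 ± 0.25 in knockouts and -1.51 ± 0.25 in wild types (SD, n = 3 each). Nsdhl, an X-linked dehydrogenase that removes methyl groups, averaged -1.22 ± 0.30 in knockouts and -1.03 ± 0.09 in wild types. Dhcr7, the reductase of the last step in one route to cholesterol, read 0.88, 0.13 and 0.52 in knockouts, against 1.06, 0.95 and 0.63 in wild types. For Lss, Nsdhl and Dhcr7 knockout 2 was the lowest of the 6 arrays.

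The regulators and the carrier of the branch varied less among the knockouts. Srebf2 averaged -0.18 ± 0.16 in knockouts and -0.04 ± 0.29 in wild types, and its dimmer probe differed by 0.84 in the opposite direction, with 5 of 6 arrays well above background. Insig1, itself a target of SREBPs, read -1.25, -1.56 and -1.45 in knockouts, against -1.33, -1.22 and -1.62 in wild types. Its difference of -0.028 had a 95% interval of -0.38 to 0.32. Stard4, a carrier of cholesterol between membranes, ran the other way from the rest. It read 1.46, 1.22 and 1.33 in knockouts, against 1.08, 1.18 and 1.09 in wild types, and was the 1 gene of the 31 whose knockouts all lay above all wild types (difference 0.22, SE 0.11, adjusted p = 0.257, limma). Its other 2 probes differed by 0.158 and 0.073 in the same direction.

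The sterol genes differed most among the knockouts themselves. Knockout 1 lay above knockout 2 for 15 of 15 sterol genes, against 49.1% of all features, by a median of 0.589 on the log2 scale (0.245 to 1.11). The same median was -0.006 over all features. These 2 arrays shared a slide and a raw-file number, and neither had Y-linked signal. Knockout 2 was the lowest of all 6 arrays for 13 of 15 sterol genes, against 18.4% of all features, the exceptions being Insig1 and Stard4. The 10 sterol genes with a further probe past the filter had 13 such probes, and knockout 2 was the lowest knockout at 13 of 13. Those probes read the same RNA on the same arrays, so they repeat the measurement and not the embryo. This order was singled out after the values were seen.

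Relative to each gene's mean over the 6 arrays, the median sterol gene stood at 0.18, -0.47 and -0.09 on knockouts 1, 2 and 3, against 0.16, 0.20 and -0.09 on wild types 1, 2 and 3. Knockout 1 was thus level with wild types 1 and 2, and knockout 3 with wild type 3. The branch's median difference was -0.19, and its median on single arrays had an SD of 0.26 between arrays of the same group. Without knockout 2 it was -0.07, and without knockout 1 it was -0.35. The SD among knockouts exceeded the SD among wild types for 12 of 15 sterol genes, against 53.4% of all features.

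**Figure D2:**
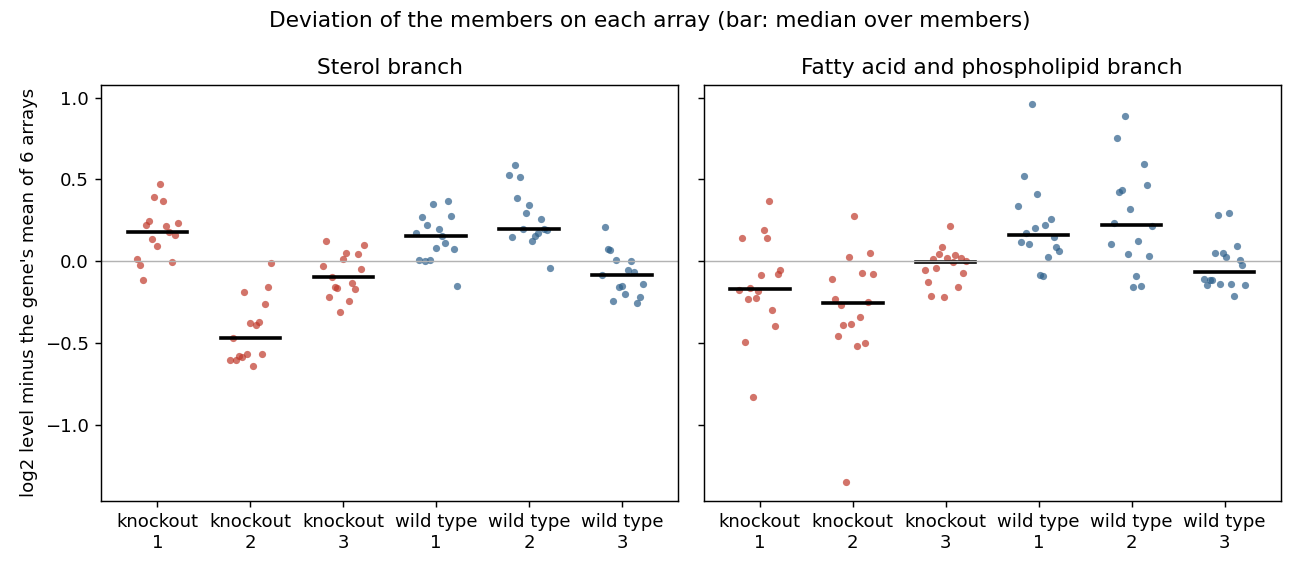
Each point is 1 gene on 1 array (y axis, log2 level minus the gene's mean over the 6 arrays), by array on the x axis, with a bar at the median of the branch. The sterol median was lowest on knockout 2 at -0.47, and the fatty acid and phospholipid medians were -0.17, -0.26 and -0.003 on the knockouts, against 0.16, 0.23 and -0.06 on the wild types.

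In the fatty acid and phospholipid branch the largest difference was that of Scd1, the stearoyl-CoA desaturase that makes monounsaturated fatty acids. Scd1 had log2 levels of 2.19, 1.67 and 3.06 in knockout lungs, against 3.98, 3.90 and 3.30 in wild type lungs. The groups did not overlap, but knockout 3 lay close to wild type 3. The difference was -1.42 (SE 0.36, 95% interval -2.26 to -0.58, adjusted p = 0.0812, limma), or 2.68-fold lower. Scd2, its paralog on the same chromosome 19, read 5.55, 5.80 and 5.86 in knockouts, against 5.98, 5.82 and 5.64 in wild types. The groups overlapped for Scd2, and its difference of -0.071 had a 95% interval of -0.40 to 0.26, which does not reach the estimate for Scd1. The difference between the 2 genes was not tested.

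Acetyl-CoA and NADPH for fatty acid synthesis come from several enzymes. Me1, the cytosolic malic enzyme that yields NADPH, read 0.82, 0.86 and 1.10 in knockouts, against 1.83, 2.07 and 1.20 in wild types. Wild type 3 sat beside the knockouts, and the difference was -0.77 (SE 0.23, adjusted p = 0.102, limma). Acly, which splits citrate into acetyl-CoA, averaged 0.43 ± 0.19 in knockouts and 0.57 ± 0.19 in wild types (SD, n = 3 each). Acaca, which makes malonyl-CoA, averaged -1.38 ± 0.15 in knockouts and -1.06 ± 0.27 in wild types. Its 2 other, dimmer probes past the filter differed by 0.568 and -0.293, so they disagree in direction. Fasn, the fatty acid synthase, read 6.62, 6.39 and 6.74 in knockouts, against 6.89, 7.22 and 6.83 in wild types. Knockout 3 and wild type 3 were 0.097 apart in log2 level, and the difference over all arrays was -0.40 (SE 0.15, adjusted p = 0.161, limma). A dimmer Fasn probe gave -0.756, with knockouts also below wild types.

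The elongases and desaturases did not differ in 1 direction. Elovl1, which lengthens long saturated fatty acids, read 3.64, 3.44 and 3.61 in knockouts, against 4.23, 4.14 and 3.87 in wild types. All knockouts lay below all wild types, of which wild type 3 was the lowest, and the difference was -0.52 (SE 0.13, adjusted p = 0.0824, limma). Elovl5, which lengthens polyunsaturated fatty acids, averaged 3.18 ± 0.19 in knockouts and 3.04 ± 0.09 in wild types, and its other probe differed by 0.254 in the same direction. Elovl6, which lengthens palmitate, averaged -0.93 ± 0.42 in knockouts and -0.86 ± 0.22 in wild types, with knockout 2 lowest at -1.41. Fads1 and Fads2, the desaturases of polyunsaturated fatty acids, are neighbours on chromosome 19. Fads1 had a difference of -0.14 (SE 0.16) and Fads2 one of 0.22 (SE 0.15), and both groups overlapped for each gene.

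Acsl4, an X-linked acyl-CoA synthetase that prefers arachidonic acid, read 2.95, 2.75 and 3.09 in knockouts, against 3.51, 3.85 and 3.34 in wild types. The groups did not overlap. The difference was -0.63 (SE 0.16, adjusted p = 0.0851, limma), or 1.55-fold lower, and the gene's other probe gave -0.623. Gpam, the mitochondrial acyltransferase that starts glycerolipid synthesis, averaged -3.19 ± 0.21 in knockouts and -2.77 ± 0.24 in wild types (SD, n = 3 each). Its groups overlapped only through knockout 3, at -2.96, and wild type 3, at -2.97.

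The phosphatidylcholine genes stood near 0. Chka, the choline kinase, averaged 1.21 ± 0.07 in knockouts and 1.28 ± 0.06 in wild types. Pcyt1a, the rate-controlling enzyme of phosphatidylcholine synthesis, which makes CDP-choline, lies on chromosome 16, as does Dppa2. It averaged 0.39 ± 0.04 in knockouts and 0.48 ± 0.18 in wild types. Their differences had 95% intervals of -0.31 to 0.17 for Chka and -0.38 to 0.20 for Pcyt1a, and their other probes differed by 0.009 and 0.014. Srebf1 read 4.36, 4.43 and 4.48 in knockouts, against 4.87, 4.64 and 4.43 in wild types, with wild type 3 among the knockouts. Srebf1, the regulator of the branch, had a difference of -0.22 (SE 0.14), close to the branch median.

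**Figure D3:**
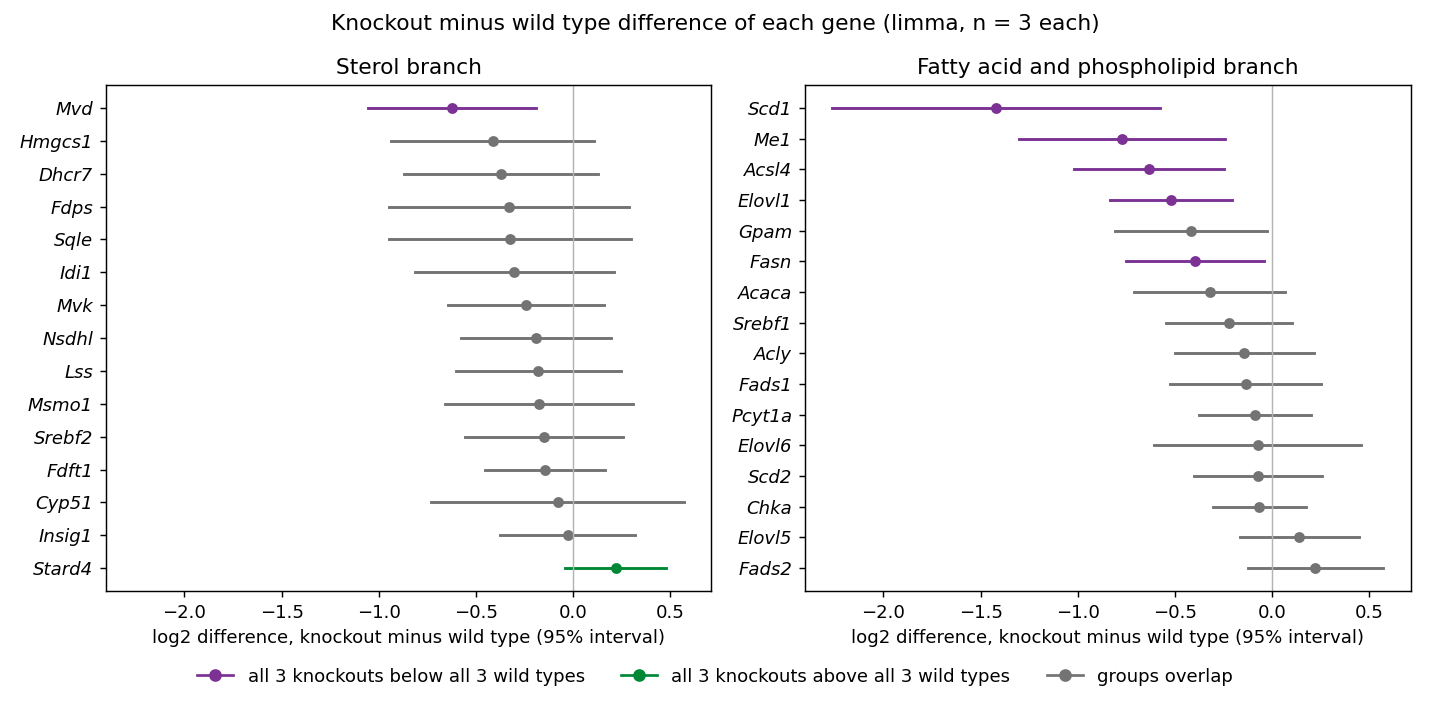
Knockout minus wild type difference of each gene (x axis, log2 scale) with its 95% interval from limma, ordered by size within each branch. Purple marks the 6 genes whose knockouts all lay below all wild types, green the 1 gene with the opposite order, and Scd1 lies farthest from 0 at -1.42.

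The branches had almost the same median difference, -0.19 for the sterol and -0.183 for the fatty acid and phospholipid genes. The gap between these medians was -0.008. On single arrays, the gap between the branch medians had an SD of 0.21 between arrays of the same group. The fatty acid and phospholipid median ranged from -0.291 without wild type 3 to -0.127 without wild type 1. Their range over genes was -0.62 to 0.22 in the sterol branch and -1.42 to 0.22 in the other branch. The lower end of the latter rests on Scd1 alone, and the next lowest gene was Me1 at -0.77. Groups did not overlap, with knockouts lower, for 1 of 15 sterol genes and for 5 of 16 fatty acid and phospholipid genes, against 14.3% of all features. These counts changed when an array was left out: the sterol count was 7 without knockout 1 and 4 without wild type 3, and the other was 9 without wild type 3. With fewer arrays any feature separates more easily. The share of 14.3% does not apply to these counts, and no share over all features was computed for them. No test of these differences between the branches was made, since the members were chosen with results known.

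The order of the arrays also differed between the branches. Knockout 1 was the highest knockout for 13 of 15 sterol genes, against 34.8% of all features, but for 4 of 16 fatty acid and phospholipid genes. Among the latter knockout 3 was the highest for 10, against 5672 of all 19871 features. Knockout 2 was the lowest knockout for 15 of 15 sterol genes and for 10 of 16 fatty acid and phospholipid genes, against 33.1% of all features. The median of knockout 1 minus knockout 2 was 0.117 in the fatty acid and phospholipid branch, with a range of -0.361 to 0.711, against 0.589 in the sterol branch. The median SD among the 3 knockouts was 0.311 for sterol genes and 0.174 for fatty acid and phospholipid genes, and among the 3 wild types it was 0.211 and 0.200.

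Wild type 3 lay below both other wild types for 26 of the 31 genes (12 of 15 sterol and 14 of 16 fatty acid and phospholipid genes), against 35.7% of all features. Wild type 1 or 2 was the highest of the 6 arrays for 9 of 15 sterol and 13 of 16 fatty acid and phospholipid genes, against 33.1% of all features. Set against wild type 3 alone, the knockout mean differed by a median of -0.035 for the sterol and -0.028 for the fatty acid and phospholipid branch, which is also the value with a term for the arrays with Y-linked signal. In that fit, 0.131% of all features and 0 of the 31 genes passed the test (limma), and 0 of the 31 had an unadjusted p under 0.05.

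Within slide 1, knockout 3 minus the mean of wild types 1 and 2 gave medians of -0.275 for the sterol and -0.278 for the other branch. Knockout 3 minus wild type 3, the arrays that share a raw-file number, gave -0.084 and 0.004. These comparisons have 1 knockout each, and no value within the other slides could be had, since each held 1 group only. For Scd1 the difference was -0.88 within slide 1, -0.99 against wild type 3 alone and -0.24 between knockout 3 and wild type 3. For Me1 the same 3 values were -0.85, -0.28 and -0.10. Further values, in the same order, were those of Mvd (-0.65, -0.38 and -0.29), Elovl1 (-0.58, -0.31 and -0.27), Acsl4 (-0.58, -0.41 and -0.25) and Fasn (-0.32, -0.25 and -0.10). Stard4, with the opposite sign, had 0.20, 0.25 and 0.24. The groups of all these genes did not overlap, so the sign in each set was fixed in advance and only the size could vary.

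**Figure D4:**
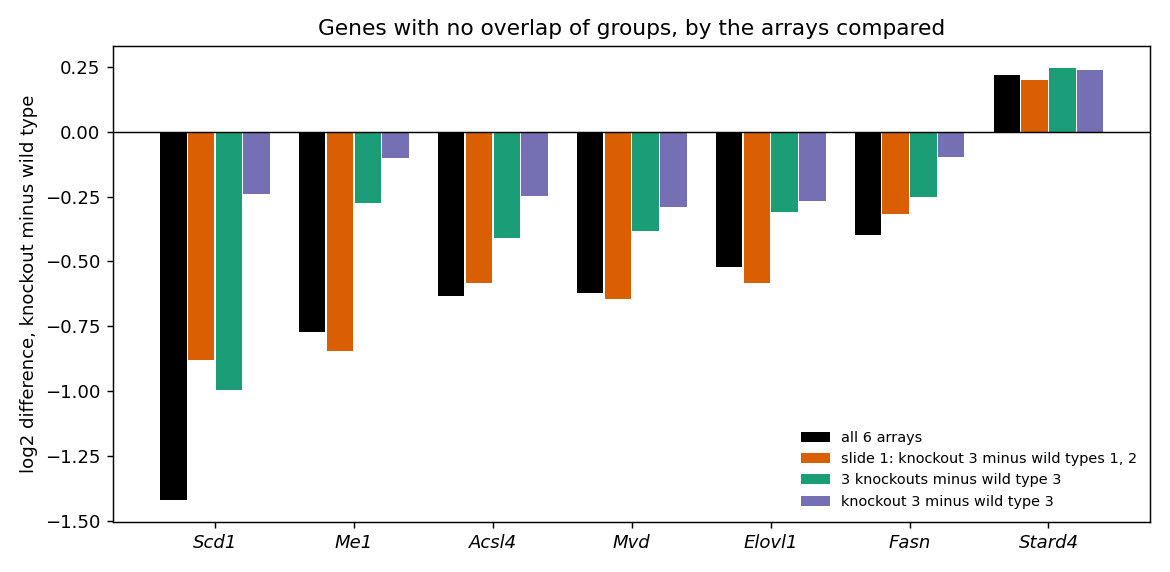
Log2 difference, knockout minus wild type (y axis), of the 7 genes whose groups did not overlap, with 1 bar per set of arrays: all 6 arrays, slide 1 only, the 3 knockouts against wild type 3, and knockout 3 against wild type 3. Since the groups did not overlap, the sign could not change between sets. The 6 negative genes were nearest to 0 between knockout 3 and wild type 3, while Stard4 lay between 0.20 and 0.25.

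The rest of the pathways gave few further differences. Of the 10 other sterol synthesis genes, 0 passed the test, with 4 positive and 6 negative differences and a median of -0.088. Among them Lbr, which carries a sterol reductase in the inner nuclear membrane, differed by 0.45 (adjusted p = 0.128, limma). Acat2, which joins acetyl units ahead of Hmgcs1, differed by -0.25, and knockout 2 was again the lowest array. Of 17 genes of sterol sensing, uptake and efflux, 15 passed the background filter and 0 the test, with a median of -0.041. Soat1, which esterifies cholesterol for storage, read 1.69, 1.15 and 1.74 in knockouts, against 2.20, 2.45 and 2.13 in wild types. Its difference was -0.73 (adjusted p = 0.0823, limma). Over the mean of its probes past the filter, the Soat1 difference was only -0.418 (adjusted p = 0.483, limma). Mbtps1, a protease that cuts SREBPs, differed by 0.36 and Abca1, the cholesterol exporter, by 0.53. Over the mean of its probes past the filter, Mbtps1 differed by 0.224. These were the 2 of the 15 genes whose 3 knockouts lay above the 3 wild types, against 17% of all features. For 3 of the 15 the knockouts lay below the wild types, against 14.3% of all features.

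Of 20 other fatty acid synthesis genes, 17 passed the background filter and 0 the test, with a median of -0.076. Slc25a1, the mitochondrial citrate carrier, read 0.66, 0.67 and 0.92 in knockouts, against 1.28, 1.39 and 1.10 in wild types (difference -0.51, adjusted p = 0.0835, limma). Like Pcyt1a, it lies on chromosome 16, as does Dppa2, and the part of that position in the difference was not tested. Pgd, which yields NADPH in the pentose phosphate pathway, differed by -0.42 (adjusted p = 0.108). Mlxipl, which encodes the carbohydrate-responsive factor ChREBP, differed by 0.65 in the other direction (adjusted p = 0.0885). Of 22 other glycerolipid and phosphatidylcholine genes, 21 were tested and 0 passed, with a median of -0.002. Among them Chpt1, the last enzyme of phosphatidylcholine synthesis, differed by -0.34, Lpin1, a phosphatidate phosphatase, by 0.58 and Dgat2, which makes triglyceride, by 0.34. Over the mean of each gene's probes past the filter, Chpt1 differed by -0.197, Lpin1 by 0.505 and Dgat2 by 0.289. In all 4 lists, as among the 31 genes, no gene passed the test.

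Markers of cell types that could carry these transcripts were set beside them. Alveolar type 2 markers had 10 of 12 negative differences, a median of -0.241 and 0 calls, and wild type 3 lay below the other wild types for 11 of 12. Their summed linear level, in multiples of the array's 75th percentile, was 337, 357 and 320 in knockouts, against 364, 390 and 315 in wild types, so the groups overlapped. The median was -0.292 within slide 1, -0.007 against wild type 3 alone and 0.043 between knockout 3 and wild type 3. The smallest p values in the list belonged to Lyz2, a lysozyme that macrophages also make (-1.10), Cebpa (-0.65) and Sftpb (-0.48).

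Of 8 macrophage markers 7 were tested, and all 7 had negative differences (median -0.436, 0 calls), with sums of 32.8, 33.9 and 49.6 in knockouts, against 75.9, 81.2 and 55.3 in wild types. The 3 smallest p values were those of Lyz1 (-1.12), Tyrobp (-0.46) and Mpeg1 (-0.53). The groups of sums did not overlap, but the sums mainly follow Lyz1, a lysozyme gene like Lyz2 and the brightest of the 7. Which cells of the whole lung carried Lyz1 RNA was not measured. Taken singly, 2 of 7 markers had all knockouts below all wild types, against 14.3% of all features. Of all pairs of 1 knockout and 1 wild type, knockout 3 and wild type 3 had the nearest sums. The same pair was nearest for Scd1, Me1, Gpam, Fasn and Acsl4. The macrophage median was -0.462 within slide 1, -0.115 against wild type 3 alone and 0.004 between knockout 3 and wild type 3. The part of these cells in the results was not tested.

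Fat cell markers were few: 4 of 9 passed the background filter, while Adipoq, Ucp1, Cfd, Lep and Retn did not. Their sums were 1.61, 6.80 and 2.02 in knockouts, against 4.14, 4.25 and 3.51 in wild types, with knockout 2 the highest of the 6. The sums mainly follow Fabp4, which read 2.73 on knockout 2 and at most 1.97 elsewhere. Cidec, a lipid droplet protein, differed by -1.17 (adjusted p = 0.0559, limma), with knockout 2 the lowest of the 6 at -4.06. Plin1 differed by -0.28, with wild type 2 highest, and Fabp4 by -0.51. Lipofibroblast markers had a median of -0.126 over 6 genes, led by Pparg at -0.32, Fgf10 at -0.35 and Pdgfra at 0.35. Their sums, 57.3, 67.8 and 83.4 in knockouts, against 64.3, 72.9 and 86.7 in wild types, overlapped. Hepatocyte markers were near background, with 2 of 8 tested (Alb at -0.29 and Afp at -0.02).

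Proliferation markers had positive differences for 10 of 10 genes (median 0.692, 0 calls), led by Top2a at 0.93, Kif20a at 0.91 and Mki67 at 0.87. Their sums were 51.5, 40.8 and 38.9 in knockouts, against 26.0, 26.0 and 44.3 in wild types, so wild type 3 lay among the knockouts, as it did for Srebf1. Set against wild type 3 alone, their median difference was 0.005. It was 0.947 within slide 1 and -0.111 between knockout 3 and wild type 3.

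Heart muscle markers differed by a median of -1.43 with 8 of 8 negative and 4 of 8 called, by -1.53 within slide 1, by -1.07 against wild type 3 alone and by -1.16 between knockout 3 and wild type 3. The calls did not hold in limma with slide as a block, with file number as a block or on the arrays without Y-linked signal. Those fits rest on 1 knockout or 1 wild type. Their estimates are those within slide 1, between knockout 3 and wild type 3, and against wild type 3 alone. Tnni3 and Tnnt2 also missed the threshold with the Y-linked term (adjusted p of 0.139 and 0.3), and Nkx2-5 alone passed with no filter on dim probes. Tnni3 was lost with the replicate block (adjusted p = 0.0533) and without wild type 1 (0.0957). Tnnt2 was lost without knockout 1 (0.0901), wild type 1 (0.117) or wild type 2 (0.107). The differences of the 4 genes stayed between -1.82 and -1.27 in the fits named here. The part of proliferating cells and of heart tissue in the differences of the 31 genes was not tested. Sex, slide and raw-file number partly coincide with the groups, and the values for the branches within each are those given above.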

How the data were processed

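Spot values come from Agilent's Feature Extraction software, version 10.7.3.1, with a grid for mm9, per the file headers; the deposited intensity per spot was background-subtracted and detrended within the array by that software, with no scaling between arrays. A further table by the authors holds log2 values, which the design text ties to GeneSpring; for most probes it lies close to quantile-normalized log2 intensities relative to the wild type median (median absolute difference at most 0.000788, correlation of differences from wild type 1 of 0.993 to 0.997). Its column medians were 0.0108, -0.00698 and -0.000844 for knockouts 1, 2 and 3, and 0 for each wild type.

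Each array held 43379 non-control spots for 41174 probes, of which 63.3% to 68.8% lay well above background; 0 spots were saturated, and 77 to 110 outlier spots per array were left out. RefSeq accessions named 26690 probes (64.8%). Intensities were put on the log2 scale relative to the array's 75th percentile, and repeated spots were averaged. A probe was kept where every array of either group had it well above background, and a gene was its probe of highest mean over the 6 arrays. Levels of different probes are not comparable. The 3 arrays per group limit the precision. The test was limma 3.58.1 under R 4.3.3 (two-sided, eBayes after lmFit, no covariate), with Benjamini-Hochberg adjustment over all 19871 features; the code was tested on simulated data. Lists got counts and medians, without tests.

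The genes and lists were chosen with earlier results of these data known. All 31 genes are named, and of every other list each gene past the threshold or the 3 of smallest p, except 1 gene that is not reported here. Alternatives covered background, scaling, filter, probe choice, the authors' values, sex-linked signal, slide, file number, replicate block and leaving out each array. Mean spot signals were not in the files used here, so the normexp alternative (offset 50) took median signals, with flagged local backgrounds set to the array's median. Protein sequences were not used here.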

Additional observations from a re-analysis of the deposited data

How the results depend on the processing

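Of the 31 genes, 0 were called under every alternative except without knockout 3 (1) and without wild type 3 (3), so leaving out 1 array gave 0 to 3. The features called, 267 of all, ranged from 34 to 1973 on leaving out 1 array, and were 28 with no filter on dim probes, 26 with a term for Y-linked signal, 0 on arrays without that signal (1378 at an unadjusted p under 0.05, limma), 25 with slide as a block, 5 with file number as a block and 55 with the replicate block. The replicate numbers do not pair the samples (correlations of -0.02, 0.042 and 0.027 between knockout and wild type deviations of the same number), and the block called 0 of the 31 genes. The sterol median kept its sign throughout (-0.347 to -0.035). The fatty acid and phospholipid median was -0.332 with median scaling, -0.028 with the Y-linked term or on arrays without that signal, and 0.004 with file number as a block. Median scaling moved the median of all features to -0.141, and no filter moved it to 0.135. Relative to -0.141, the branch medians of -0.339 and -0.332 are close to the values given. Under median scaling, knockouts lay below all wild types for 5 sterol and 8 fatty acid and phospholipid genes. No share over all features was computed for that setting, in which the median of all features was itself negative.

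Signs turned only for differences that had not passed the test. With file number as a block these were Hmgcs1 0.057, Fdps 0.089, Lss 0.166, Cyp51 0.247, Srebf2 0.301, Insig1 0.175, Srebf1 0.056, Acly 0.016, Acaca 0.132, Scd2 0.226, Elovl5 -0.005, Fads1 0.132, Gpam 0.012, Pcyt1a 0.146, Acat2 0.117, Sftpb 0.099, Mpeg1 0.004, Kif20a -0.047 and Mki67 -0.035. With the Y-linked term, and equally on arrays without that signal, they were Fdps 0.079, Lss 0.063, Cyp51 0.16, Srebf2 0.181, Insig1 0.206, Acly 0.072, Scd2 0.102, Fads1 0.07, Pcyt1a 0.101, Acat2 0.122 and Afp 0.345. The mean of all probes gave Cyp51 0.074 and Srebf2 0.348, slide as a block Mvk 0.051 and Elovl6 0.31, median scaling Elovl5 -0.008 and normexp Afp 0.022. Leaving out 1 array gave -0.158 to 0.023 for Scd2, -0.441 to 0.256 for Afp, -0.334 to 0.22 for Cyp51, -0.145 to 0.06 for Insig1 and -0.2 to 0.169 for Elovl6. The cause was not tested.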
